A study of Sus scrofa with 4 samples.

Results

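MicroRNAs (miRNAs) of the dorsal hippocampus were compared with those of the ventral hippocampus in piglets that had received iron dextran, an injectable complex of iron and a sugar polymer. The members were the library labelled dorsal and the library labelled ventral of the iron-treated group, 2 of the 4 small RNA libraries of the series, read from the deposited tables of annotated, predicted and conserved miRNAs. Both came from Rongchang piglets, a Chinese breed, whose genotype the labels give as "wide type". The litter of 8 gave 4 control and 4 iron piglets of equal sex ratio. Iron piglets received 200 mg of iron dextran into muscle on day 3 and again on day 4 after birth, a treatment meant to cause oxidative stress, and the labels list no injection for the controls. Age at tissue collection was not given in the sources used here. Tissue of each region was mixed into 1 sample per group before RNA extraction, and the number of piglets in each mixture is not stated. Each side of the comparison is thus 1 pooled library, and variation from animal to animal is unknown. All ratios below compare libraries, and their intervals cover counting error only.

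A miRNA is a short RNA cut from a hairpin precursor that guides Argonaute proteins to messenger RNAs, mostly lowering their stability or translation. Target choice rests mainly on the seed, the stretch near the 5′ end that pairs with the message, so miRNAs with the same seed are grouped as a family. The hippocampus differs along its long axis: the dorsal pole is best known for spatial memory and the ventral pole for emotion and stress responses. Many brain miRNAs are tied to cell types, such as miR-9 and miR-124 to neurons, miR-219 and miR-338 to oligodendrocytes and miR-34b, miR-34c and miR-449 to multiciliated cells such as ependyma.

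Sequences of miRNAs that the results below turn on are shown from the deposited table of conserved miRNAs, 5′ to 3′, with the seed (bases 2 to 8) in capitals. Several rows stand under the name of another species, so the letters are those of the named row. The first set was higher in the dorsal library.
miR-452: aACUGUUUgcagaggaaacugag
miR-7857-3p: aUUGUUCUccaaccuggcucuu
miR-7: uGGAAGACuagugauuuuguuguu
miR-221-5p: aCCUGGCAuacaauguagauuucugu
miR-708-5p: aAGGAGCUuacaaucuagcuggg

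The second set was lower in the dorsal library and is known from pancreas, endocrine or choroid plexus tissue or shares the seed of miR-96. The rows printed for miR-217, miR-216a and miR-216b are too scarce to pass the filter given below. The row printed for miR-96-5p passes it only through the control ventral library, at 50.5 CPM. That row had 4.32 CPM in iron dorsal and 6.81 CPM in iron ventral.
miR-217: uACUGCAUcaggaacugauuggau
miR-216a: uAAUCUCAgcuggcaacugugag
miR-216b: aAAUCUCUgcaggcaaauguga
miR-1271: cUUGGCACcuaguaagcacu
miR-96-5p: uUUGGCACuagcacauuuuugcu
miR-375: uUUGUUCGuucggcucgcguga
miR-1298: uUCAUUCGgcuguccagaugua

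The third set holds oligodendrocyte miRNAs and 3 miRNAs with the seed GGCAGUG, miR-34c, miR-34b and miR-449a, all with lower dorsal levels.
miR-219-3p: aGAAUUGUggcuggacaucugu
miR-219-5p: uGAUUGUCcaaacgcaauucuug
miR-338-3p: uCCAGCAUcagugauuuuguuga
miR-34c: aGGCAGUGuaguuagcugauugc
miR-34b: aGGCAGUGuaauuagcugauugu
miR-449a: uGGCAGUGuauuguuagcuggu

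The last set pairs relatives with 1 seed whose ratios differed.
miR-135a: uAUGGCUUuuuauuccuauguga
miR-135b: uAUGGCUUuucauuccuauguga
miR-19a: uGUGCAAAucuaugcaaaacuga
miR-19b: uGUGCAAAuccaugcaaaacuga

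The ventral iron library held 12299682 reads of annotated miRNAs and the dorsal iron library 11396800. Levels are counts per 1000000 reads (CPM) after TMM scaling, which sets the libraries to a common size. As a rough upper limit for a count of 0, 3 reads were taken. Before TMM scaling they equal 0.244 CPM in the ventral and 0.263 CPM in the dorsal library. The filter asked for 10 CPM in any of the 4 libraries, and 251 of the 321 annotated miRNAs passed it and were compared. The neuronal miR-9, a defining miRNA of brain tissue, was first in both libraries; no list used here separates the dorsal from the ventral pole, so the region labels were not checked.

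Most miRNAs differed little between the regions. Over the 251, the median log2 ratio of dorsal over ventral was 0.01, with quartiles of -0.20 and 0.20 and an SD of 0.35 across miRNAs. The counting interval excluded a ratio of 1 for 195 of them, 101 higher and 94 lower, so at this depth even small differences pass the counting error. A fold of 2 or 1.5 with an interval excluding 1 was therefore asked for. The scaling shifts every ratio together: with total counts in place of TMM all log2 ratios are lower by the same step, the median is -0.09, and the split of 129 above and 122 below 1 becomes 97 above and 154 below.

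At 2-fold, 1 of the 251 annotated miRNAs was higher in the dorsal library (0.398%) and 1 was lower (0.398%). miR-452, a miRNA of the X chromosome that lies beside miR-224 within an intron in other mammals, had 399 reads in the dorsal and 120 in the ventral iron library. Its levels were 37.5 and 9.73 CPM, a ratio of 3.85 (95% interval 3.13 to 4.76). The control libraries had the opposite order, 10.9 CPM in dorsal and 34.6 CPM in ventral, so the dorsal iron library stood near the ventral control and the ventral iron library near the dorsal control. Its neighbour miR-224, the other member of that list, had 2 dorsal and 1 ventral read and no fold is given. miR-217, best known from the exocrine pancreas, had 80 reads in the dorsal and 245 in the ventral iron library. Its levels were 7.51 and 19.9 CPM, 2.64-fold lower in dorsal (2.05 to 3.45). Here the control libraries had the same order, at 8.59 CPM in dorsal and 17.1 CPM in ventral. Both miRNAs are rare, and raising the filter to 100 CPM left 0 miRNAs at 2-fold in each direction.

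At 1.5-fold, 6 miRNAs were higher in dorsal (2.39%) and 15 were lower (5.98%). With total counts these became 3 higher and 20 lower. The most abundant of all was miR-7, a miRNA of neurons and endocrine cells that is regulated by the circular RNA Cdr1as. It stood at 52574 CPM in iron dorsal, 28702 in iron ventral, 36339 in control dorsal and 49733 in control ventral. The dorsal to ventral ratio was 1.83 (1.82 to 1.84) in iron piglets, and miR-7 held place 8 by level in the ventral and place 4 in the dorsal library. miR-7857-3p had 133 CPM in dorsal and 69.8 in ventral, a ratio of 1.91 (1.75 to 2.08). miR-708-5p, processed from an intron of the teneurin gene TENM4, had 786 and 501 CPM, a ratio of 1.57 (1.52 to 1.62). These miRNAs and the scarce miR-582, at 12.1 and 7.95 CPM, were lower in dorsal in the control libraries. The exception among the 6 was miR-221-5p, the lesser arm of a miRNA known for lowering the cell cycle inhibitor p27: its ratio was 1.59 (1.55 to 1.63) in iron piglets, at 1419 against 893 CPM, and it was also above 1 in controls, at 1.29.

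The next in order fell short of 1.5-fold. miR-758, of the imprinted DLK1-DIO3 region and known for lowering the cholesterol transporter ABCA1, had a ratio of 1.46 (1.43 to 1.48), at 2745 CPM in dorsal and 1883 in ventral. miR-105-1 followed at 1.46 (1.34 to 1.58), miR-500 at 1.45 (1.37 to 1.55), miR-874 at 1.45 (1.41 to 1.49), miR-935 at 1.43 (1.29 to 1.58) and miR-362 at 1.39 (1.33 to 1.44). Of these, miR-500 and miR-362 have precursors within 10000 bases of each other in the RefSeq annotation of Sscrofa11.1, together with miR-532, whose 5p arm was at a log2 ratio of 0.27 and whose 3p arm was at -0.07.

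The 3 most abundant of the 15 lower miRNAs are known from oligodendrocytes or ciliated cells. miR-219b-3p, of the miR-219 family that promotes oligodendrocyte differentiation, stood at 7976 CPM in iron dorsal, 12604 in iron ventral, 10506 in control dorsal and 9284 in control ventral. It was 1.58-fold lower in the dorsal iron library (1.57 to 1.59). miR-34c, known from multiciliated cells and from stress responses of neurons, stood at 4194 CPM in iron dorsal, 7028 in iron ventral, 6910 in control dorsal and 9409 in control ventral. It was 1.68-fold lower (1.66 to 1.695), and was lower in dorsal in both groups of piglets. miR-338, another oligodendrocyte miRNA, stood at 836 CPM against 1302, 1.56-fold lower (1.52 to 1.60).

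The other 12 lower miRNAs, miR-217 among them, had at most 322 CPM in any of the 4 libraries. miR-135, which acts on serotonin signalling genes, was 1.83-fold lower (1.72 to 1.95), at 131 CPM in dorsal and 239 in ventral. miR-19a and miR-18a, of the proliferation-linked miR-17 cluster, were 1.66-fold (1.57 to 1.75) and 1.58-fold (1.46 to 1.71) lower. miR-142-3p, of blood cells and microglia, was 1.59-fold lower (1.43 to 1.78). miR-212, induced by neuronal activity through CREB, was 1.53-fold lower (1.42 to 1.65), and miR-210, the best known hypoxia-induced miRNA, was 1.51-fold lower (1.39 to 1.64). miR-24-2-5p was 1.62-fold lower (1.48 to 1.79) and miR-32 1.53-fold lower (1.42 to 1.66). The scarce ones were miR-490-5p, miR-190b and miR-542-5p. miR-490-5p was 1.89-fold lower (1.43 to 2.52) on 74 against 162 reads. miR-190b, which reached 10 CPM only in the controls, was 1.68-fold lower (1.21 to 2.36) on 57 against 111 reads. miR-542-5p was 1.51-fold lower (1.17 to 1.94) on 101 against 176 reads. For all 15 the iron dorsal library was the lowest of the 4 libraries, and for all 6 higher miRNAs it was the highest. Over all 251 miRNAs it was the lowest for 76 and the highest for 82; since the iron dorsal value chose the 21, nothing is read from their count.

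**Figure D1:**
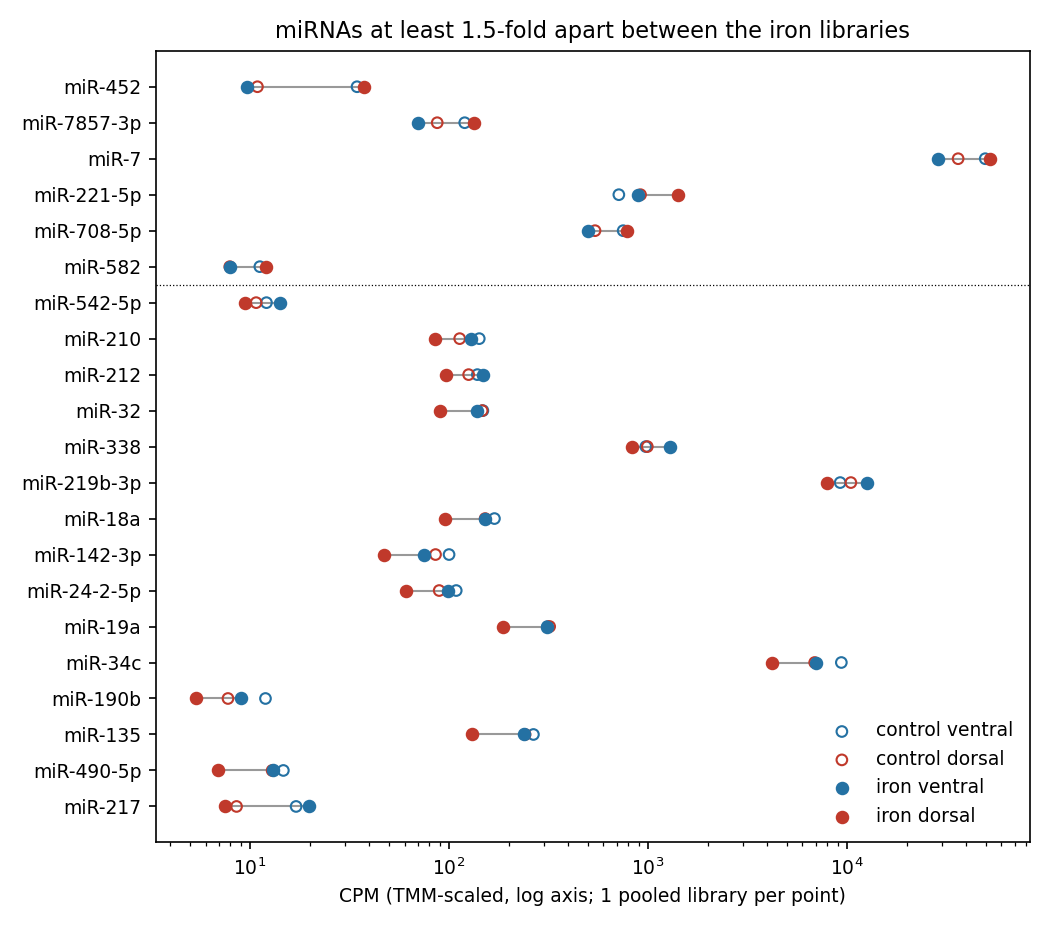
Levels of the 21 annotated miRNAs at least 1.5-fold apart between the 2 iron libraries, in CPM on a log axis, with filled points for iron and open points for control libraries (blue ventral, red dorsal) and a line joining the iron pair. miR-452 and miR-7 show the iron dorsal point near the control ventral point, and miR-217 and miR-34c keep the same order in both groups.

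**Figure D2:**
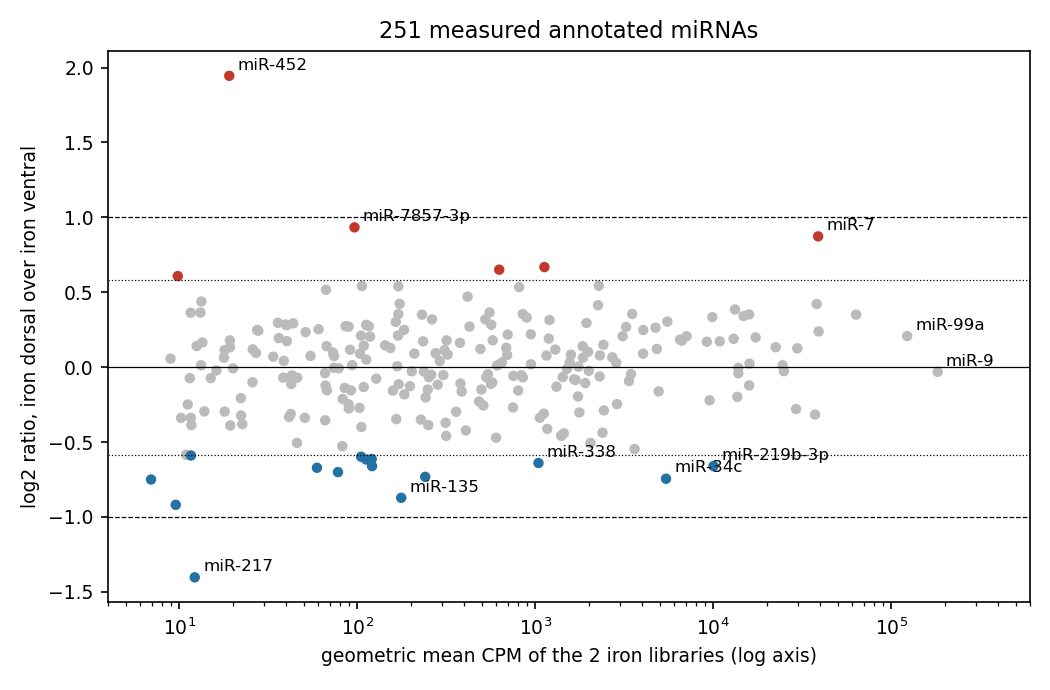
Log2 ratio of iron dorsal over iron ventral against the geometric mean CPM of the 2 libraries (log axis) for 251 annotated miRNAs, 1 point each. Dotted lines mark 1.5-fold and dashed lines 2-fold; red and blue points are the 6 higher and 15 lower miRNAs, and miR-7 is the 1 coloured point on the higher side above 10000 CPM.

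The same 10 miRNAs led both iron libraries. miR-9, a regulator of neural progenitors and neurons, took 16.8% of reads in dorsal and 18.5% in ventral, at 180323 and 184262 CPM, a ratio of 0.979. miR-99a had a log2 ratio of 0.21, miR-100 0.24, miR-30e-5p 0.35 and miR-30a-5p 0.42. In their lists, miR-99/100 had 2 of 3 members above 1, with miR-99b at -0.12, and miR-30 had 8 of 10, with miR-30e-3p at -0.06 and miR-30c-1-3p at -0.11. The neuronal miR-124a was lower, at 33451 CPM in dorsal and 41655 in ventral, a log2 ratio of -0.32, and went from place 4 to place 7. miR-181a was at -0.28, miR-26a at 0.13 and miR-125b at -0.03. With total counts a log2 ratio between 0 and 0.10 changes its sign, which touches none of these 10.

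Lists of cell-type miRNAs were read by their counts and medians beside the median of 0.01 over all 251. The oligodendrocyte list had 2 of 3 annotated members measured, miR-219b-3p and miR-338, and both were lower by over 1.5-fold (beside 5.98% of all 251), with a median log2 ratio of -0.65 against 0.10 in control piglets. Its summed level was 8812 CPM in iron dorsal, 13906 in iron ventral, 11503 in control dorsal and 10264 in control ventral, so the iron libraries were the lowest and the highest of the 4. In pooled tissue, fewer cells of a type and less RNA per cell cannot be told apart. The third member, miR-219a, had 9 and 10 reads in the annotated table, although the conserved table holds many reads of its sequence.

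The ciliated ependyma list had miR-34c as its 1 measured member in the annotated table. The choroid plexus list had miR-204, a miRNA of secretory epithelia, at 164 CPM in dorsal and 178 in ventral, a log2 ratio of -0.11. The epithelium list had 0 of 2 members measured, and its summed level was 1.69 CPM in dorsal and 2.11 in ventral. These list values come from the annotated table alone. The conserved rows printed in the second set above differed more. For miR-1298 the log2 ratio was -0.97, from 382 dorsal and 869 ventral reads. For miR-375 it was -0.99, from 174 and 401 reads. In control piglets these rows stood at -0.63 and -0.34. Whether the makeup of the dissected tissue moved with the region difference was not tested.

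The neuron-enriched list had 2 of 10 measured members above 1 and 8 below, with a median of -0.16. At 1.5-fold it had 0 of the 10, beside 2.39% higher and 5.98% lower over all 251, so nothing is read from the 0. Of the 8, miR-129b and miR-129a-5p had nearly equal reads in every library, so they are not separate measurements. Its most abundant members are miR-9 and miR-124a, given above, and the summed level was 239549 CPM in dorsal and 254449 in ventral. Of the activity-regulated pair, which is cut from 1 precursor transcript, miR-212 was at -0.61 and miR-132 at -0.03. Of these 2, miR-212 was lower by over 1.5-fold (beside 5.98% of all 251) and miR-132 was not.

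The astrocyte and glia list had 4 of 6 members above 1 and a median of 0.14, with miR-26a at 0.13 and miR-29a at 0.27. The immune and microglia list had 3 of 6 above 1 and a median of 0.02 that becomes -0.08 with total counts. In it miR-142-3p was at -0.67 and its other arm miR-142-5p at -0.11, while miR-146b, a brake on inflammatory signalling, was at 0.22 with 1019 CPM in dorsal and 875 in ventral. The erythroid list had 3 of 3 members below 1 and a median of -0.46. Its miR-451, of red blood cells, was at -0.10 (553 and 594 CPM) and miR-144, from the same precursor transcript, at -0.46 (269 and 370.2 CPM).

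The vascular list had 3 of 6 members above 1 and a median of 0.06 that turns to -0.05 with total counts, with miR-143-3p of smooth muscle at 0.17 and miR-126-3p of endothelium at 0.12. The muscle list had 1 of 4 members above 1 and a median of -0.23, with miR-499-5p at -0.27 and miR-1 at -0.18. The liver and gut list had 2 of 2 above 1, miR-192 at 0.27 and miR-194a at 0.14. The sensory cluster was split: miR-182 was at 0.21, miR-183 at -0.02, and miR-96-5p, named after its value was seen, at -0.58, just short of 1.5-fold. The printed conserved row of miR-96-5p was scarce, with 46 reads in dorsal and 84 in ventral, 1.58-fold lower (1.09 to 2.31). The Hox cluster miRNAs miR-10b and miR-10a-5p were at -0.26 and 0.06, the second on 97 and 108 reads and below 0 with total counts. In the vascular, muscle, liver and gut, sensory and Hox lists 0 annotated members passed 1.5-fold. Over all 251, 2.39% were higher and 5.98% lower, so nothing is read from the 0.

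Reads of near-identical members, as in the let-7 and miR-30 families, can have been divided between rows, so single members are uncertain. The let-7 family, which drives differentiation, had 9 of 9 members above 1 with TMM and 6 of 9 with total counts, with a median of 0.13 and let-7a at 0.13. let-7c, at 0.02, turned to -0.08 with total counts. The miR-30 family had 8 of 10 above 1 (6 with total counts) and a median of 0.15. The miR-181 family, known from lymphocytes and synapses, had 4 of 4 members below 1 and a median of -0.31, against 0.27 in control piglets, with miR-181a at -0.28 and miR-181b at -0.55. The miR-17 cluster and its paralogs had 9 of 13 below 1 and a median of -0.20, with miR-17-5p at -0.29 and miR-92b-3p at -0.05 as the most abundant and 2 of 13 lower by over 1.5-fold (beside 5.98% of all 251), miR-19a and miR-18a. The list of miR-221 and miR-222 had 3 of 3 above 1 and a median of 0.33, with miR-221-3p at 0.30. Of the 3, miR-221-5p was higher by over 1.5-fold (beside 2.39% of all 251). The miR-15/16 list had 2 of 5 above 1 and a median of -0.06, with miR-16 at -0.06 and miR-497 at -0.41.

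The imprinted DLK1-DIO3 list had 10 of 13 measured members above 1 (7 with total counts) and a median of 0.10, with miR-127 at a ratio of 0.997 and miR-758 at a log2 ratio of 0.54. The miR-28 list, with miR-151 and miR-708, had 3 of 6 above 1 and a median of 0.06 that turns to -0.04 with total counts. In it miR-151-5p was at -0.16 and miR-151-3p at -0.25. Of the 6, miR-708-5p was higher by over 1.5-fold (beside 2.39% of all 251). miR-125a was at 0.36 while its relative miR-125b was at -0.03. miR-103 was at 0.20 and miR-107 at 0.08, the second below 0 with total counts.

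The lists nearest to the treatment held members on both sides of 1. Of the 7 measured members of the oxidative stress and hypoxia list, miR-210 was lower by over 1.5-fold (beside 5.98% of all 251). The list had 3 of the 7 above 1 and a median of -0.13. Its most abundant members were miR-27b-3p, at 0.01 and below 0 with total counts, and miR-21, a miRNA raised in many stressed tissues, at 0.35 with 17963 CPM in dorsal and 14071 in ventral. The iron handling list holds miRNAs reported to act on genes that handle iron. It had 10 of 12 above 1 (7 with total counts) and a median of 0.14. At 1.5-fold it had 0 of the 12, beside 2.39% higher and 5.98% lower over all 251, so nothing is read from the 0. Its most abundant members were miR-148a-3p at 0.21 and miR-148b-3p at 0.26.

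**Figure D3:**
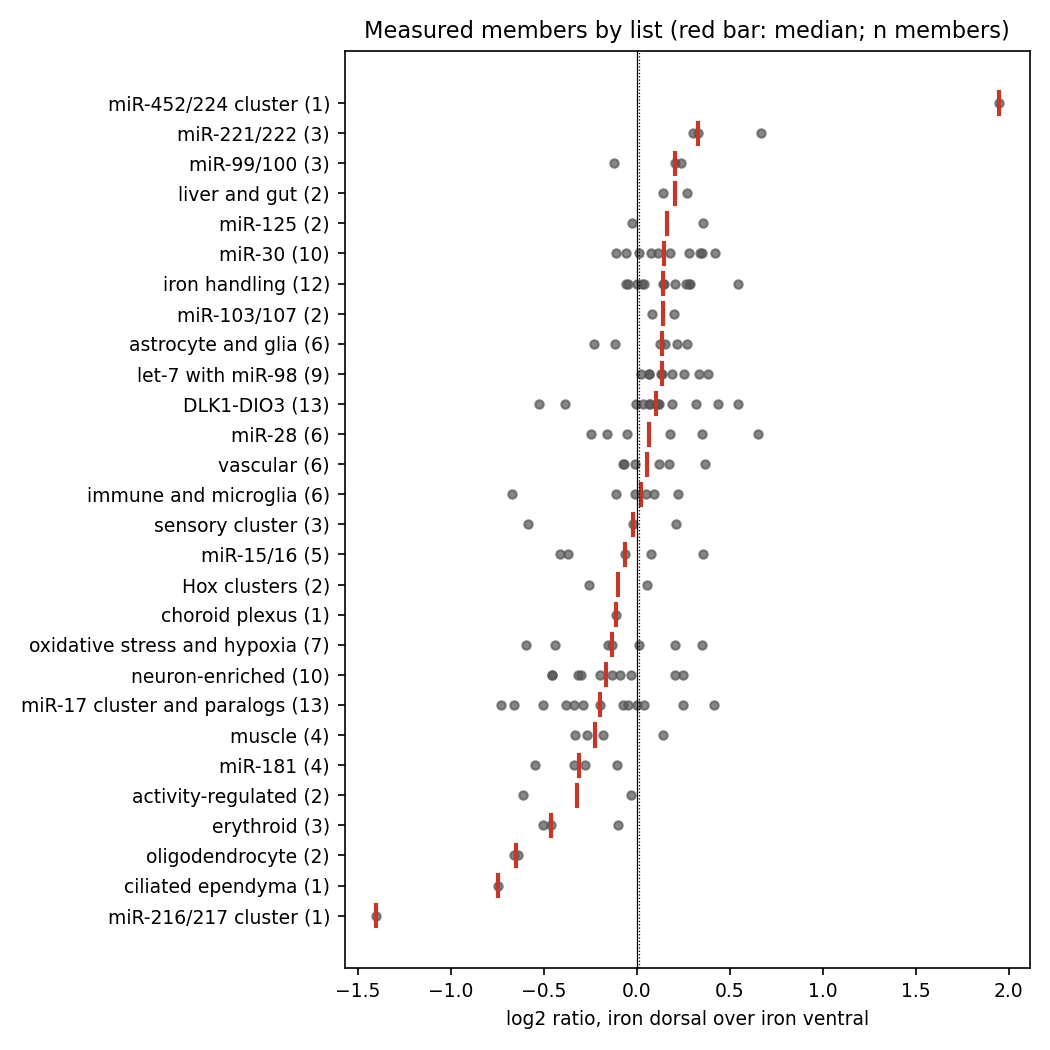
Log2 ratio of iron dorsal over iron ventral for the measured members of each list, 1 point per miRNA, with a red bar at the median and the number of members in brackets. The dotted line is the median of all 251 miRNAs. The oligodendrocyte list, at a median of -0.65, lies below all lists with more than 1 member.

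miRNAs whose precursors lie together had unequal ratios in several clusters. Members of the miR-17 cluster within 10000 bases of each other in Sscrofa11.1 ranged from -0.73 for miR-19a to 0.0038 for miR-20a. In the paralogous cluster of miR-106a, miR-363 had a log2 ratio of 0.41, while miR-19b, which has a precursor in both clusters, had -0.51. The cluster of miR-23a, miR-27a and miR-24-3p gave 0.22, -0.44 and -0.04, the last also cut from a precursor elsewhere. In contrast miR-221 and miR-222 were on the same side of 1. So were miR-500 and miR-362, but of miR-532 beside them the 5p arm was at 0.27 and the 3p arm at -0.07. Apart from miR-19a, miR-500, miR-362 and miR-221, the miRNAs of this paragraph were named after their values were seen.

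The conserved table sorts short RNA sequences of many species into families, and its sums showed more low values in the dorsal iron library than the annotated table did. The filter left 188 families; at 2-fold, 1 of them was higher (0.532%) and 7 had lower sums (3.72%). The higher one was mir-452, at 335 dorsal and 99 ventral reads. The lowest was mir-1271, a family that shares the seed UUGGCAC with miR-96: it had 331 reads in iron dorsal, 2130 in iron ventral, 1271 in control dorsal and 1789 in control ventral. At 31.1 CPM against 173 CPM it was 5.56-fold lower (4.95 to 6.26), and the iron dorsal library lay far under the other 3. The annotated row of miR-1271 had 6 and 17 reads, so this difference is carried by the conserved rows alone, nearly all by 1 row named for dog with 325 and 2107 reads.

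mir-216 had 90 reads in iron dorsal, 369 in iron ventral, 244 in control dorsal and 292 in control ventral, 3.54-fold lower (2.80 to 4.51) in the iron dorsal library. miR-216a and miR-216b lie in a cluster with miR-217 in mammals and are best known from pancreas. Their printed rows, which did not reach 10 CPM in any library, had 9 against 46 reads for miR-216a and 28 against 93 for miR-216b. The family mir-217 was 2.72-fold lower (2.05 to 3.65). In controls mir-217 had a ratio of 0.538 and mir-216 a ratio of 0.981.

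The other 4 families lay close to the 2-fold line. mir-33, which sits in the SREBF genes and lowers cholesterol export, was 2.25-fold lower (2.05 to 2.47), at 60.2 CPM in dorsal and 135 in ventral. mir-375, of endocrine cells, was 2.07-fold lower (1.85 to 2.31), at 41.6 and 86.0 CPM. mir-592 was 2.06-fold lower (1.77 to 2.40) and mir-1298 2.01-fold lower (1.82 to 2.23). mir-449, named as the next in order, was 1.998-fold lower (1.85 to 2.16) and mir-34 1.69-fold lower (1.67 to 1.71). In control piglets mir-33, mir-375, mir-1298, mir-449 and mir-34 were also below 1, at 0.551, 0.806, 0.747, 0.805 and 0.754, and mir-592 was at 1.17.

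Single sequences and sums by seed were read because counting can divide reads between near-identical rows. The filter left 456 seeds; at 2-fold, 1 of them was higher (0.219%) and 13 had lower sums (2.85%). The seed UUGGCAC, in rows filed under mir-1271, mir-96 and mir-182 among others, was lowest, at 39.6 CPM in dorsal and 185 in ventral. The seed GAUUGUC of miR-219-5p was the most abundant of the 13: its rows summed to 1376 CPM in iron dorsal, 2800 in iron ventral, 2133 in control dorsal and 2867 in control ventral, 2.03-fold lower in iron dorsal (1.995 to 2.07). The miR-219-5p sequence printed above had 8401 and 22118 reads, 2.27-fold lower (2.22 to 2.33). The seed GAAUUGU of miR-219-3p summed to 7451 CPM in dorsal and 11852 in ventral, 1.59-fold lower (1.58 to 1.60). In controls the 5p seed was at 0.744 and the 3p seed at 1.13, so the 2 arms were on different sides of 1 there and on the same side in iron piglets.

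The seed GGCAGUG, of miR-34a, miR-34b, miR-34c and miR-449 rows, summed to 3870 CPM in iron dorsal and 6502 in iron ventral, 1.68-fold lower (1.66 to 1.70). miR-34a was close to 1: its annotated level was 87.3 CPM in dorsal and 97.2 in ventral, a log2 ratio of -0.15. miR-34b differed more than miR-34c, from which it differs at G11A and C23U (the base of miR-34c first, positions from 1 at the 5′ end). miR-34b had 232 reads in dorsal and 904 in ventral, 3.36-fold lower (2.91 to 3.90), while the miR-34c row had 26957 and 54099, 1.73-fold lower (1.71 to 1.76). miR-449a had 372 and 862 reads, 2.001-fold lower (1.77 to 2.27).

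Relatives that differ at 1 base also had unequal ratios. miR-135a and miR-135b differ at U11C and share the seed AUGGCUU. miR-135a had 1121 reads in dorsal and 2539 in ventral, 1.96-fold lower (1.82 to 2.10), while miR-135b had 579 and 668, a ratio of 1.004 (0.896 to 1.12). Their intervals do not overlap. miR-19a and miR-19b also differ at U11C: miR-19a was 1.79-fold lower (1.67 to 1.93) and miR-19b 1.46-fold lower (1.40 to 1.52). These rows were chosen after their values were seen.

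Rows of the conserved table that hold the same sequence but end at different bases gave different region ratios. There were 449 pairs of measured rows, in 129 families, in which the longer row adds 1 base at the 3′ end. In iron piglets the longer row had the lower dorsal to ventral log2 ratio in 314 pairs and the higher in 128, with a median difference of -0.07. In control piglets the order was the other way, with 153 lower and 288 higher and a median of 0.03. Pairs in 1 family share reads and rows, so they are not independent, and no test was made. Among 292 pairs with at least 1000 reads, the longer row was lower in 216 and higher in 75 in iron piglets, and lower in 93 and higher in 198 in controls.

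Length series of 5 miRNAs are given as examples, chosen after their values were seen, and other pairs had wider steps. miR-7 rows of 21, 22 and 23 bases had ratios of 2.32, 2.20 and 2.21, and the printed row of 24 bases a ratio of 1.70 (1.68 to 1.72). Another row of 24 bases, with a different last base, had a log2 ratio of 0.90 against 0.77 for the printed row. In controls the rows of 21, 22 and 23 bases and the printed row were at 0.596, 0.596, 0.569 and 0.793. Of these, the printed row was nearest to 1 in both groups. miR-219-3p had ratios of 0.878, 0.710 and 0.599 at 20, 21 and 22 bases. miR-34c had 0.710 at 22 bases. At 23 bases a row ending in u had 0.647, and the more abundant row ending in c had 0.577. Rows of equal length thus differed too. miR-338-3p changed little, from 0.628 at 21 to 0.591 at 23 bases, and miR-221-3p had no order by length. Across 1142 sequences, which share libraries and rows, the log2 ratio had a Pearson's r of -0.11 with length and of -0.002 with GC content, given as a description. The rule that divided reads of nested sequences between rows was not given in the sources used here.

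**Figure D4:**
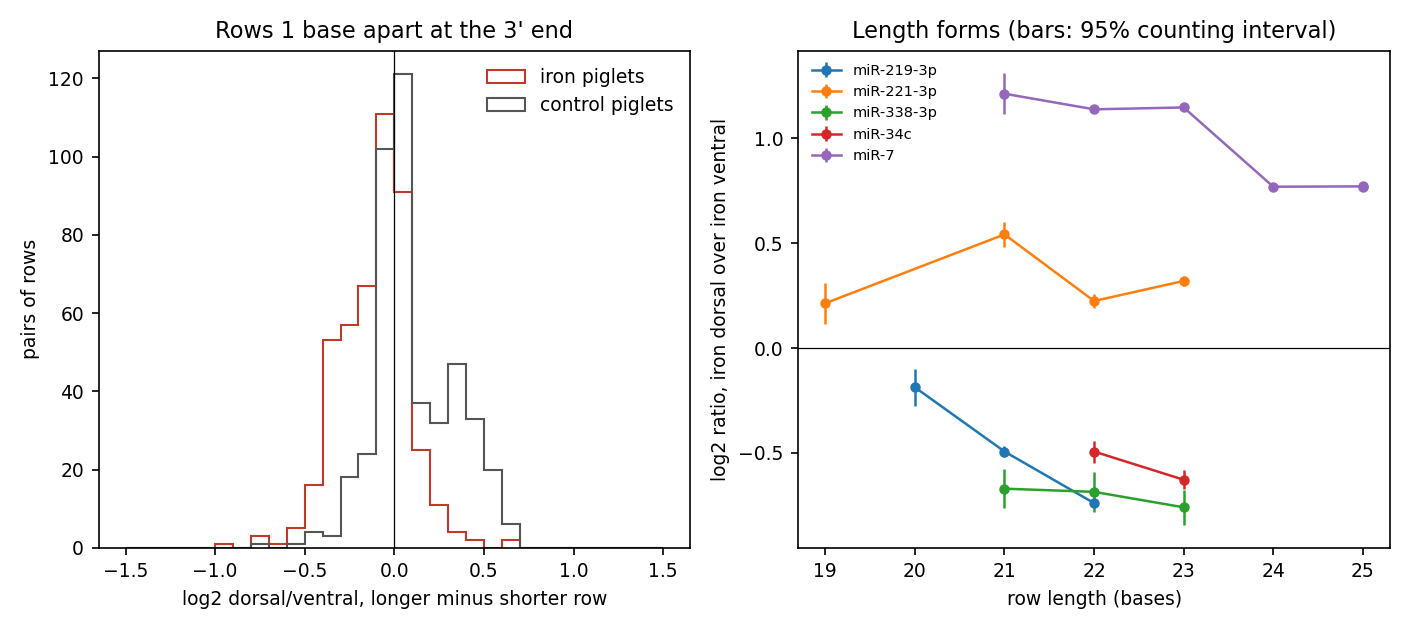
Left, difference in log2 dorsal/ventral ratio between the longer and the shorter of 449 pairs of rows that differ by 1 base at the 3′ end, as counts of pairs in iron (red) and control (grey) piglets. Right, log2 ratio of iron dorsal over iron ventral by row length in bases for 5 miRNAs with 95% counting intervals. Further rows of miR-7 at 24 bases and of miR-34c at 23 bases are not shown. The iron histogram leans below 0, the control histogram above 0, and the miR-7 rows shown step down between 23 and 24 bases.

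Some rows of the conserved table had the same read counts as rows of the reverse complement sequence. Whether a read was counted in both rows or divided between them is not known here. Of 38 pairs of sequences that are exact reverse complements, 31 had a member at 10 CPM or more, and 29 of those had reads equal within 1 in both iron libraries. miR-7 and miR-3529-3p form 1 such pair, each with 70389 dorsal and 47849 ventral reads, and miR-338-3p and miR-3065-5p another, with 1692 dorsal and 3316 or 3317 ventral reads. The ratios of mir-3529, 1.70, and mir-3065, 0.599, are therefore not results apart from those of miR-7 and miR-338.
miR-3529-3p: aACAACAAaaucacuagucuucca
miR-3065-5p: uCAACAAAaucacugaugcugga

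The filter left 112 predicted miRNAs, named here by their number in the deposited table; at 2-fold, 0 of them were higher in the dorsal iron library (0.0%) and 5 had lower levels (4.46%). The count was 11 lower with total counts and 1 lower with a minimum of 100 CPM. The 112 hold 7 pairs of rows with equal reads in every library, and 2 of these pairs are among the 11, so the rows are not all separate measurements. The mature arm of predicted miRNA 515 had 72 reads in iron dorsal, 279 in iron ventral, 170 in control dorsal and 195 in control ventral, 3.35-fold lower (2.57 to 4.40). Predicted miRNA 419 was 3.67-fold lower (1.67 to 9.18) on 8 against 34 reads. At 0.751 CPM in iron dorsal and 2.76 in iron ventral it lay below the minimum in both. It passed through the control ventral library, at 17.7 CPM, and its ratio in controls was 0.133. Predicted miRNA 46 was 2.19-fold lower (1.58 to 3.08), predicted miRNA 318 2.14-fold lower (1.93 to 2.38) and predicted miRNA 22 2.07-fold lower (1.86 to 2.32). The most abundant predicted miRNA, predicted miRNA 467, named after its value was seen, stood at 23396 CPM in iron dorsal and 16159 in iron ventral, a ratio of 1.45 (1.44 to 1.46), with the opposite order in controls.

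A precursor yields a 5p and a 3p arm, and their shares need no scaling between libraries. Of 59 annotated pairs and 58 predicted pairs of mature and star arms with 100 reads or more in each iron library, the 5 largest differences in share were small except for 1. The star arm of predicted miRNA 28 held 29.2% of reads in dorsal (95% interval 25.8% to 32.9%) and 47.5% in ventral (44.0% to 51.1%). Controls had 46.4% and 47.3%, so the iron dorsal library stood apart. The star share of predicted miRNA 423 was 44.9% in dorsal and 36.7% in ventral, with overlapping intervals. The 3p share was 49.0% against 41.6% for miR-455, of cartilage, 44.5% against 37.4% for miR-423, and 36.9% against 43.5% for miR-7134. For these 3 the intervals did not overlap. In controls the order was the other way for all 3. The control dorsal and ventral shares were 41.4% and 44.7% for miR-455 and 38.7% and 40.6% for miR-423. For miR-7134 they were 44.6% and 39.3%, again with intervals that did not overlap.

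The region difference of the iron piglets was set beside that of their control littermates, which shares no library with it. The spread of log2 ratios was similar, with an SD of 0.35 in iron and 0.40 in control piglets, and at 1.5-fold the controls had 8 miRNAs higher and 9 lower. miR-452 had a log2 ratio of 1.95 in iron and -1.66 in control piglets, the widest gap among the named miRNAs. miR-7 was at 0.87 and -0.45, and miR-219b-3p at -0.66 and 0.18. miR-217 was at -1.40 and -0.99, and the ratio of its iron to its control ratio was 0.753 (0.536 to 1.06), an interval that holds 1. miR-183 and miR-96-5p, at -2.70 and -2.56 in controls, were at -0.02 and -0.58 in iron piglets; both were high in the control ventral library alone, which takes no part in the iron comparison. With 4 libraries and no replicate these differences have no residual degree of freedom and were not tested.

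**Figure D5:**
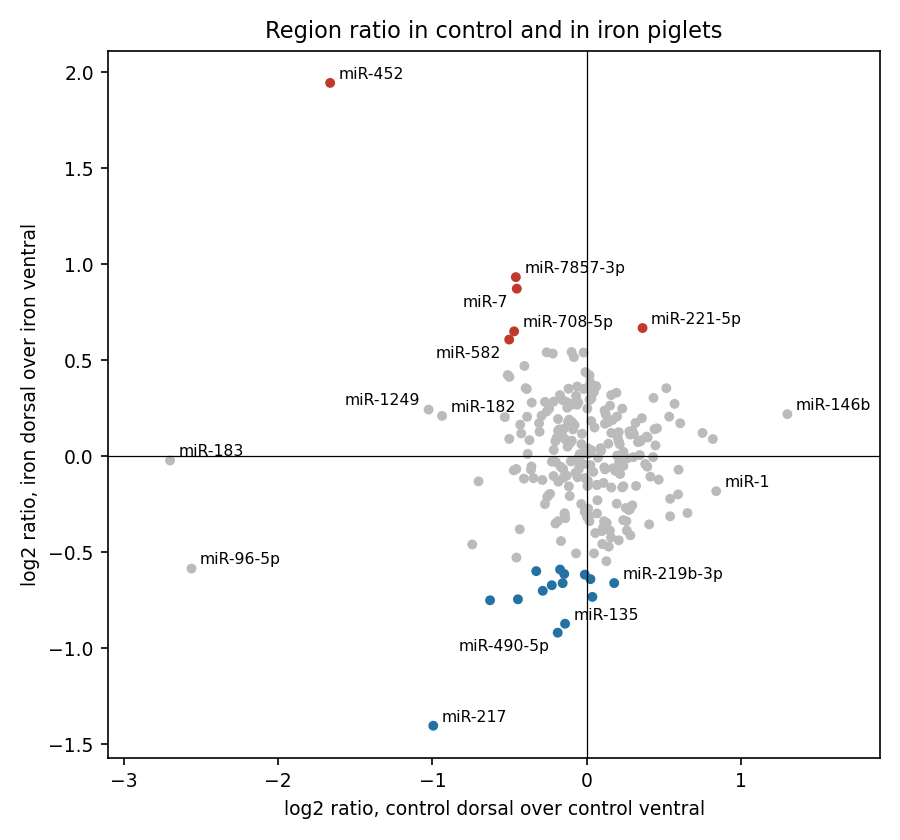
Log2 ratio of dorsal over ventral in control piglets (horizontal) and in iron piglets (vertical) for 251 annotated miRNAs, 1 point each, red and blue for the 6 higher and 15 lower at 1.5-fold in iron piglets. miR-452 lies at the upper left with 1.95 in iron and -1.66 in control piglets, and miR-217 at the lower left.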

How the data were processed

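Small RNA libraries of dorsal and ventral hippocampus were made with Illumina protocols, per the labels. The submitters' processing notes name cutadapt 1.2.2 and the builds Sscrofa 10.2 and susScr 3; aligner, counter and miRNA database were not given in the sources used here. Reads per row, as deposited by the authors, are estimated counts: 75.8% of the annotated values in each iron library were whole and the rest fractions. All were rounded. The authors also deposited RPM values, per the file headers, which were used as an alternative scaling only. A further 8 columns with sample values played no part.

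Rows of miR-9, miR-218 and miR-490 with the same precursors and reads within 0.1% were merged, which left 321 of 326 annotated rows. Reads were scaled with TMM over the 4 libraries (edgeR 4.0.16) to CPM, and the same factors were applied to 1052 predicted and 2791 conserved rows, summed over 278 families or by seed. Features with 10 CPM in at least 1 library were compared. Ratios carry exact conditional binomial (Clopper-Pearson) 95% intervals, and shares exact binomial ones. These cover counting error only, since each side is 1 pooled library. They treat reads as independent, which amplified reads are not, so they can be too narrow even for that error. A feature was counted at 2-fold (or 1.5-fold) with an interval excluding 1; no p-value can be had from 1 library a side. The intervals were also run on simulated Poisson counts, the model they assume, which checks the code only. Those counts held no fractions, divided reads or amplified copies, so they say nothing of the intervals in these data.

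The named miRNAs are those counted at 2-fold, the 12 highest and 12 lowest ratios, the 10 with most reads, list members counted at 1.5-fold with each list's 2 most abundant members, at most 8 predicted miRNAs and families per direction, and the 5 arm pairs with the largest differences. The members and lists were chosen with earlier results of these data known. The RefSeq table of Sscrofa11.1, used for neighbourhood only, matched 298 annotated miRNAs. Alternatives were total counts, TMM over the iron libraries, DESeq2 1.42.0 size factors, the authors' RPM, other minimums and unmerged rows. Reads of near-identical miRNAs could have been split between rows, so values of single let-7, miR-30 or miR-129 members are uncertain.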

Additional observations from a re-analysis of the deposited data

Results flagged for a closer look

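Of 71 named miRNAs, 7 had dorsal to ventral ratios on opposite sides of 1 in iron and control piglets. For each, both counting intervals left out 1 and the gap was at least 1 on the log2 scale. Many of the 71 were named for their iron ratio, and the other measured miRNAs were not screened. Nothing is therefore read from this count or from the directions. Whether the groups differed was not tested, since each side of each ratio is 1 pooled library. The gap, iron minus control, was 3.61 in miR-452. It was 1.39 in miR-7857-3p and 1.33 in miR-7, the most abundant of the 7. In miR-182 it was 1.15, in miR-708-5p 1.12 and in miR-582 1.11. These 6 were higher in the dorsal library of iron piglets and lower in that of controls. The gap was -1.02 in miR-1, a muscle miRNA, which was lower in dorsal in iron piglets (173 against 196 CPM) and higher in controls (221 against 123 CPM). For miR-452, miR-7, miR-7857-3p, miR-708-5p and miR-582 the iron dorsal and the control ventral library were the 2 highest of the 4. miR-182 was highest in the control ventral library, at 223 CPM against 97.6 to 116 CPM in the other 3.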

How the results depend on the processing

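No paired analysis was possible because each group is 1 pooled library, and leaving out a replicate leaves no comparison. With total counts, 2 annotated miRNAs were lower at 2-fold in place of 1, 3 were higher at 1.5-fold in place of 6, and 11 predicted miRNAs were lower in place of 5. With no filter, 2 were higher and 2 lower at 2-fold; the added ones, miR-7143-5p (5 dorsal and 0 ventral reads) and miR-216, are below the minimum. With a minimum of 100 CPM, 0 annotated miRNAs were higher and 0 lower at 2-fold, 1 predicted miRNA was lower, and 0 families were higher and 4 lower; fewer features were then compared. The other counts stayed within 1.5 times. At 1.5-fold, all 15 lower miRNAs were also lower with total counts, TMM over the iron libraries, DESeq2 size factors and no filter, 14 with the authors' RPM, with unmerged rows and with the filter on the iron libraries alone, and 11 with the 100 CPM minimum. Of 71 named log2 ratios, 67 kept their direction with total counts, 69 with TMM over the iron libraries, 68 with the authors' RPM, 69 without merging and 71 with DESeq2 size factors, and the largest shift was 0.10. Of list medians, 25 of 28 kept it with total counts and 24 of 25 with the 100 CPM minimum, where the sensory cluster turned to 0.09. Depth limits the rare miRNAs: miR-452 and miR-217 rest on 80 to 399 reads a library.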
